A study of Mus musculus with 12 samples.

Results

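The ZFP36 family comprises small RNA-binding proteins that shorten the life of the mRNAs they bind. Its members here are Zfp36, which encodes tristetraprolin, and its relatives Zfp36l1 and Zfp36l2. These 3 genes were taken by name from a table of 43629 genes, and all 3 were present and passed the filter on low counts in every comparison. RNA sequencing had been done on B cells of the mouse spleen, in 12 libraries that form 3 groups of 4. The study asked what the loss of Zfp36l1 does to marginal zone (MZ) B cells, which sit at the border of the splenic follicle, and set these cells beside follicular (FO) B cells, which recirculate through the follicles. The deficient MZ group (replicates 1, 2, 7 and 8) carried the genotype Zfp36l1fl/flERT2cre/+, in which both copies of Zfp36l1 are flanked by recombination sites and 1 copy of a tamoxifen-inducible Cre recombinase is present. The control MZ group (replicates 3, 4, 5 and 6) was ERT2cre/ERT2cre, and the FO group (replicates 3, 4, 7 and 8) was Zfp36l1fl/fl cre-. The strain of every library was given as Zfp36l1tm1.1Tnr. By the genotype labels, deficient and control cells differed in the floxed allele and also in the number of Cre copies. The strain label names a Zfp36l1 allele for control libraries too, and their genotype label does not state which Zfp36l1 alleles they carried. The age of the mice, the treatment that activates Cre, the exons removed and the driver of Cre are not stated in the labels. Nor was it stated whether replicates came from separate mice. The p-values therefore rest on the spread among these libraries, part of which may be technical.

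The sources differ on how FO libraries were made. The design text names a SMARTer kit, 5 ng of RNA and paired reads of 100 bp for MZ cells, but a stranded TruSeq kit and single reads of 100 bp for FO cells. The extraction protocol of the FO samples, however, names a SMARTer kit too, and this conflict was not resolved. Cell type, genotype, read layout and any difference in kit cannot be told apart in any comparison with FO cells.

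ZFP36 proteins grip AU-rich elements in the 3′ untranslated region (UTR) of an mRNA with a pair of zinc fingers and recruit the CCR4-NOT complex, which removes the poly(A) tail, so that decapping and decay follow. The p38 MAP kinase pathway acts through MK2, the product of Mapkapk2, to phosphorylate them. 14-3-3 proteins then bind the phosphorylated form, which lowers decay activity, and the phosphatase PP2A reverses it. In developing B cells, Zfp36l1 and Zfp36l2 are known for holding the cell cycle in check.

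All 3 genes lie on the minus strand. In the annotation used (GENCODE M21, build GRCm38), Zfp36 (ENSMUSG00000044786) spans chr7:28376784-28380253 with 2 transcripts. Zfp36l1 (ENSMUSG00000021127) spans chr12:80107754-80113013 with 4 transcripts, and Zfp36l2 (ENSMUSG00000045817) spans chr17:84183931-84187947 with 1. The RNA-binding part of each protein is encoded by a stretch of 174 coding bases that runs from the first cysteine of the first finger to the last histidine of the second. It lies at chr7:28378044-28378217 in Zfp36, at chr12:80110075-80110248 in Zfp36l1 and at chr17:84186554-84186727 in Zfp36l2. These stretches are shown because they are what makes the genes one family. Capitals mark the codons of the cysteines and histidines that hold zinc, 3 cysteines and 1 histidine in each finger, in the direction of the mRNA.
Zfp36: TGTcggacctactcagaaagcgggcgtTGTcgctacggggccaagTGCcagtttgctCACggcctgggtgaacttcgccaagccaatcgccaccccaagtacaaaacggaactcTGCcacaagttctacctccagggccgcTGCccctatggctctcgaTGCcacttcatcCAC
Zfp36l1: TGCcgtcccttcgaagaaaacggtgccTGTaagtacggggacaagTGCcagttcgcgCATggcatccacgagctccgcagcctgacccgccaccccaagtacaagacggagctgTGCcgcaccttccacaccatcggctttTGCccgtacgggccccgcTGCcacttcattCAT
Zfp36l2: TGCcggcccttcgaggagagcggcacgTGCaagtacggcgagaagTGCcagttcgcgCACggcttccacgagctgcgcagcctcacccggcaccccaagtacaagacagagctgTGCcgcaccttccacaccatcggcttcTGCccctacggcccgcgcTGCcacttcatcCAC
The spacing of the marked codons was identical in the 3 genes, with 54 bases between the fingers. Zfp36l1 and Zfp36l2 were the closest pair, with the same base at 87.4% of the 174 positions. Zfp36 matched Zfp36l1 at 67.8% and Zfp36l2 at 69% of them. No stretch of 50 bases of the Zfp36l2 transcript occurred in a transcript of another gene, and none was shared between the 3 genes. Of the 50-base stretches of Zfp36l1, 3.12% also occurred in its processed pseudogene Zfp36l1-ps, and 1.76% of those of Zfp36 occurred in other genes.

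The mRNAs of this family carry the element that its proteins bind. The AU-rich heptamer TATTTAT (read as UAUUUAU in the mRNA) was searched on the sense strand of the longest annotated 3′ UTR of each gene. Each gene held exactly 3 matches, in UTRs of 774 bases for Zfp36, 1835 for Zfp36l1 and 1822 for Zfp36l2. They are shown with 11 bases on either side, the heptamer in capitals and the position of its first base counted from the start of the UTR.
Zfp36, position 575: agtgggcccttTATTTATgacgactttat
Zfp36, position 590: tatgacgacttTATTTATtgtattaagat
Zfp36, position 615: agattttatagTATTTATatatattgggt
Zfp36l1, position 1150: ttatcaaaacgTATTTATtgccaaactat
Zfp36l1, position 1191: aattttgttcaTATTTATcgggatgacaa
Zfp36l1, position 1405: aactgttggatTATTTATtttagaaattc
Zfp36l2, position 822: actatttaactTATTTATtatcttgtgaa
Zfp36l2, position 870: tgtccatactgTATTTATcgagtatgatg
Zfp36l2, position 1056: attgtatgtaaTATTTATttcattaattt
No heptamer overlapped another within a gene. The matches of Zfp36 lay close together, at chr7:28376937-28376983. Those of Zfp36l1 (chr12:80108178-80108439) and Zfp36l2 (chr17:84184691-84184931) were spread over longer distances. A match was present in the longest 3′ UTR of 27.6% of 21024 genes. Among UTRs within 20% of the same length, as many as 3 matches were found in 1.3% for Zfp36 and in 4.34% each for Zfp36l1 and Zfp36l2. The shortest annotated UTR of Zfp36l1, at 37 bases, held 0 matches, and gene counts do not tell which UTR the cells used. A match describes the letters present and says nothing of binding.

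**Figure D1:**
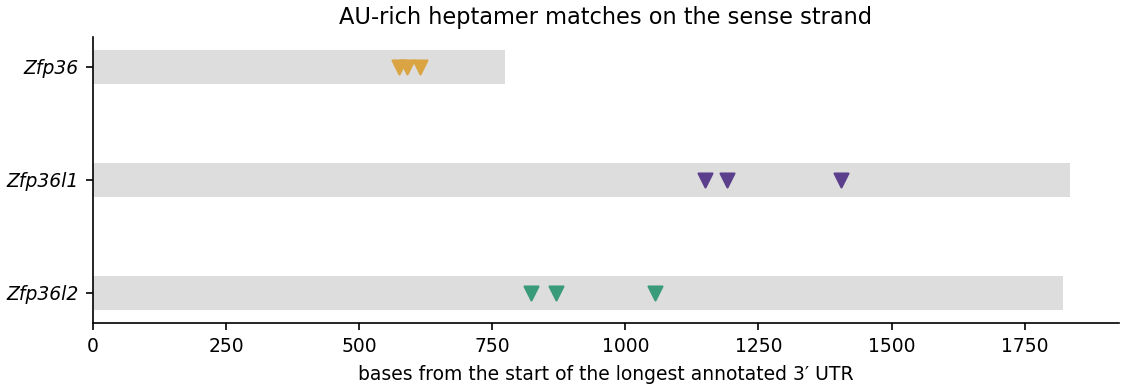
Position of the TATTTAT matches (triangles) along the longest annotated 3′ UTR of each gene (grey bars, in bases from the start of the UTR). Each gene has 3 matches. Those of Zfp36 stand close together in a UTR of 774 bases, and those of Zfp36l1 and Zfp36l2 lie farther apart in UTRs of 1835 and 1822 bases.

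Depth was even, from 28938453 to 40664963 counts per library, and the members had 751 to 17860 counts each, a counting error of 0.748 to 3.65%. Levels are given as counts-per-million values (CPM), scaled by TMM over all 12 libraries. The TMM factors were 0.85 to 0.865 in FO libraries and 1.03 to 1.11 in MZ libraries, so every level set between FO and MZ cells carries this scaling. The summed level of 5 MZ markers, such as Cr2 and S1pr3, was 6066 to 6652 CPM in deficient cells, 7079 to 7378 in control cells and 1376 to 1747 in FO cells. By mean level the MZ markers leaned lower in deficient than in control MZ cells, except Cd1d1. Their median log2 difference was −0.12, beside −0.00 over all genes. Of the 5, 1 was called higher and 1 lower in deficient cells, beside 2.3% and 1.46% of all tested genes. Cr2 stood at 3437 ± 226 CPM in deficient and 4102 ± 255 in control cells, and Dtx1 at 1319 ± 27.1 and 1734 ± 174. S1pr3 stood at 519 ± 32.1 and 560 ± 52.2, and Cd9 at 162 ± 13.3 and 176 ± 48.2. Cd1d1 went the other way, at 948 ± 148 and 640 ± 43.6 CPM (SD, n = 4 each). Both gates are labelled CD93+, but Cd93, the gene of that marker, was near 0 in MZ libraries, at 0.175 to 1.56 CPM in deficient and 0.451 to 1.08 in control cells, against 17.4 to 23.2 CPM in FO cells. Its mRNA in MZ cells therefore goes against that label.

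Loss of Zfp36l1 was accompanied by more Zfp36l2 mRNA, and Zfp36 did not pass the test. Of the 3 genes, 1 was lower and 1 higher in deficient than in control MZ cells, where 1.46% of 13987 tested genes were called lower and 2.3% higher (3.76% in all). The lower gene was Zfp36l1, the floxed gene of the deficient genotype, so the count speaks to a response only through Zfp36l2 and Zfp36. The comparison asks how the family responds when 1 member is removed.

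In control MZ cells Zfp36l1 stood at 115, 109, 119 and 125 CPM in replicates 3 to 6. In deficient cells it stood at 21.9, 31.7, 28.1 and 37.4 CPM in replicates 1, 2, 7 and 8. Every deficient library was far below every control library, with no overlap. The mean fell from 117 ± 6.99 to 29.7 ± 6.49 CPM (SD, n = 4 each), a log2 difference of −1.98 (SE 0.12, 95% interval −2.25 to −1.72; adjusted p = 4.18e-07, edgeR quasi-likelihood). This was the 4th lowest difference of the 13987 genes tested and the 2nd lowest among those called. Transcript was left in every deficient library, at 18.7%, 27.1%, 24% and 31.9% of the control mean in replicates 1, 2, 7 and 8. The relative spread was larger in deficient cells, with a coefficient of variation of 21.8% against 5.97% in control cells. Counts over the whole gene do not show whether the remaining transcript came from intact or recombined alleles. In bulk RNA, fewer cells of a type and less RNA per cell cannot be told apart.

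Zfp36l2, the closest relative in sequence, moved the other way. It stood at 121, 97.3, 109 and 74.4 CPM in control replicates 3 to 6 and at 200, 289, 207 and 185 CPM in deficient replicates 1, 2, 7 and 8. The lowest deficient library was above the highest control library. The mean rose from 100 ± 19.8 to 220 ± 46.9 CPM (SD, n = 4 each), a log2 difference of 1.13 (SE 0.15, 95% interval 0.79 to 1.46; adjusted p = 0.00173, edgeR quasi-likelihood). It was 146th from the top of the genes tested and 73rd among those called. Deficient replicate 2 was the highest library and control replicate 6 the lowest. With each library left out in turn the difference ranged from 0.97 to 1.23 and stayed called.

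Zfp36, the founding member, did not pass the test. It stood at 246, 256, 253 and 226 CPM in control replicates 3 to 6 and at 254, 258, 281 and 298 CPM in deficient replicates 1, 2, 7 and 8. Replicates 2, 7 and 8 were above every control library, replicate 2 only just. Replicate 1 was within the control range, so the groups overlapped. The means were 245 ± 13.2 and 272 ± 20.8 CPM (SD, n = 4 each), a log2 difference of 0.14 (SE 0.07; adjusted p = 0.296, edgeR quasi-likelihood). The 95% interval, −0.01 to 0.30, leaves room for a small rise.

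Single-gene exact two-sided permutation tests over the 70 orderings of these libraries gave p = 0.0286 for Zfp36l1 and for Zfp36l2, the smallest value that 4 against 4 can give, and p = 0.0571 for Zfp36. In 11.6% of all tested genes the groups did not overlap. In the authors' deposited table the log2 fold changes are −1.64 for Zfp36l1, 0.88 for Zfp36l2 and 0.14 for Zfp36, smaller than the fitted values for the 2 called genes. The labels do not say whether those values were shrunk.

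Some markers of other cell types also moved between the groups. By list, 2 of 2 tested T cell, 1 of 3 erythroid and 1 of 6 macrophage and monocyte markers were called higher in deficient cells. Of 3 platelet, 3 plasma cell and 4 dendritic markers 0 were called, beside 3.76% of all tested genes. The summed level of 6 T cell markers was 1.98 to 4.43 CPM in deficient libraries, where none was at 0 in all 4, against 0.675 to 0.864 CPM in control libraries, where Cd3e and Cd4 were at 0. Cd8a and Tcf7 made up most of this sum, at 1.95 ± 1.12 against 0.472 ± 0.105 CPM and at 1.03 ± 0.624 against 0.182 ± 0.0937 CPM (SD, n = 4 each). The T cell receptor genes were near 0 in both groups, with 1 and 0 counts of Cd3e over the 4 libraries, 1 and 1 of Cd3g and 24 and 21 of Trac. The summed level of 4 erythroid markers was 3.8 to 11.5 against 1.01 to 5.23 CPM, and these ranges overlapped. That of 3 platelet markers leaned the other way, at 6.7 to 14 against 9.53 to 16.9 CPM. Plasma cell markers summed to 183 to 229 against 199 to 221 CPM, dendritic markers to 10.3 to 15.2 against 8.36 to 13.3. Macrophage and monocyte markers summed to 24 to 32.7 against 22.1 to 25.5 CPM. These summed ranges overlapped as well, but not those of every single gene. Adgre1 stood at 4.08 to 5.48 against 0.69 to 2.27 CPM and the dendritic marker Xcr1 at 2.42 to 2.89 against 1.52 to 1.95 CPM. The means of Csf1r, Lyz2, Cd68, Vcam1, Zbtb46 and Siglech were lower in deficient cells, with overlapping ranges. Cd24a, a marker of immature B cells, stood at 499 ± 42.8 CPM in deficient and 394 ± 46.7 CPM in control cells (SD, n = 4 each; log2 0.33, SE 0.08; adjusted p = 0.0389, edgeR quasi-likelihood). The 5 FO markers summed to 1731 to 2107 CPM in deficient and 1510 to 1666 CPM in control libraries. Of these 5, 3 were called higher and 0 lower in deficient cells, beside 2.3% and 1.46% of all tested genes, with a median log2 difference of 0.36. Cxcr5, a part of this sum, was not higher in FO cells (568 ± 18.7 CPM) than in control MZ cells (667 ± 40.3 CPM). Klf2 rose most among the 5 FO markers in deficient against control cells (log2 1.87, SE 0.10; adjusted p = 1.11e-07, edgeR quasi-likelihood). The part of these differences in the levels of Zfp36l1 and Zfp36l2 was not tested.

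**Figure D2:**
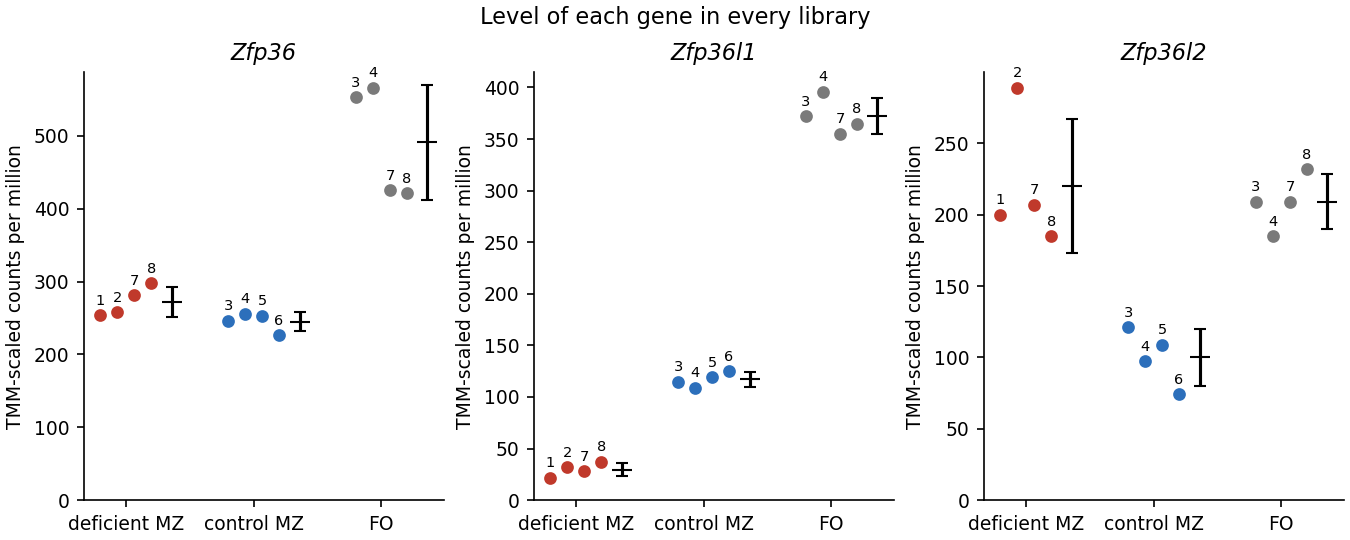
TMM-scaled counts-per-million (CPM) of each gene (y axis, from 0) in every library of the 3 groups (points, with the replicate number above) and the group mean with its SD (black marks, n = 4). Zfp36l1 is lowest in deficient MZ cells and highest in FO cells, Zfp36l2 is lowest in control MZ cells, and Zfp36 is at a like level in both MZ groups and higher in FO cells.

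Set against FO cells, control MZ cells had less mRNA of all 3 genes. Most of the transcriptome differed here: of 13843 tested genes 81.3% were called, with 38.7% lower and 42.6% higher in MZ cells, and in 76.5% the groups did not overlap. The count of 3 lower of 3 has to be read against these shares.

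In FO replicates 3, 4, 7 and 8, Zfp36l1 stood at 372, 396, 355 and 365 CPM, with a mean of 372 ± 17.5 (SD, n = 4). Its control MZ level was 31.5% of that, a log2 difference of −1.65 (SE 0.06, 95% interval −1.77 to −1.52; adjusted p = 2.03e-11, edgeR quasi-likelihood). The lowest FO library was at 355 CPM and the highest control MZ library at 125 CPM.

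Zfp36 stood at 553, 566, 425 and 421 CPM in the same FO libraries, with a mean of 491 ± 78.9 (SD, n = 4). FO replicates 3 and 4 were higher than replicates 7 and 8, and all 4 were above every MZ library. Control MZ against FO cells gave a log2 difference of −0.98 (SE 0.10, 95% interval −1.21 to −0.75; edgeR quasi-likelihood, adjusted p = 2.89e-06).

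Zfp36l2 stood at 209, 185, 209 and 232 CPM in FO libraries, with a mean of 209 ± 19.3 (SD, n = 4). Its log2 difference between control MZ and FO cells was −1.03 (SE 0.13, 95% interval −1.33 to −0.73; edgeR quasi-likelihood, adjusted p = 4.69e-05). In the authors' deposited table the 3 log2 fold changes of this comparison are −1.65, −0.98 and −1.03 for Zfp36l1, Zfp36 and Zfp36l2.

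In deficient MZ cells Zfp36l1 and Zfp36 were lower than in FO cells, while Zfp36l2 overlapped the FO range. Of the 3 genes, 2 were lower than in FO cells and 0 higher. Of 13895 tested genes, 38.3% were called lower and 42.8% higher (81.1% in all), and in 76% the groups did not overlap. Zfp36l1 was 12.1-fold lower (log2 −3.60, SE 0.14; edgeR quasi-likelihood, adjusted p = 1.02e-10). For Zfp36 the level was 1.75-fold lower (log2 −0.81, SE 0.11; adjusted p = 9.43e-06, edgeR quasi-likelihood). Zfp36l2 differed by 0.12 on the log2 scale (SE 0.12, 95% interval −0.15 to 0.39; adjusted p = 0.368, edgeR quasi-likelihood). This interval is narrow beside the difference of 1.13 between deficient and control cells, but it does not show equal levels, and the exact permutation p was 0.857. The 3 comparisons share libraries in pairs and are not independent of each other.

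**Figure D3:**
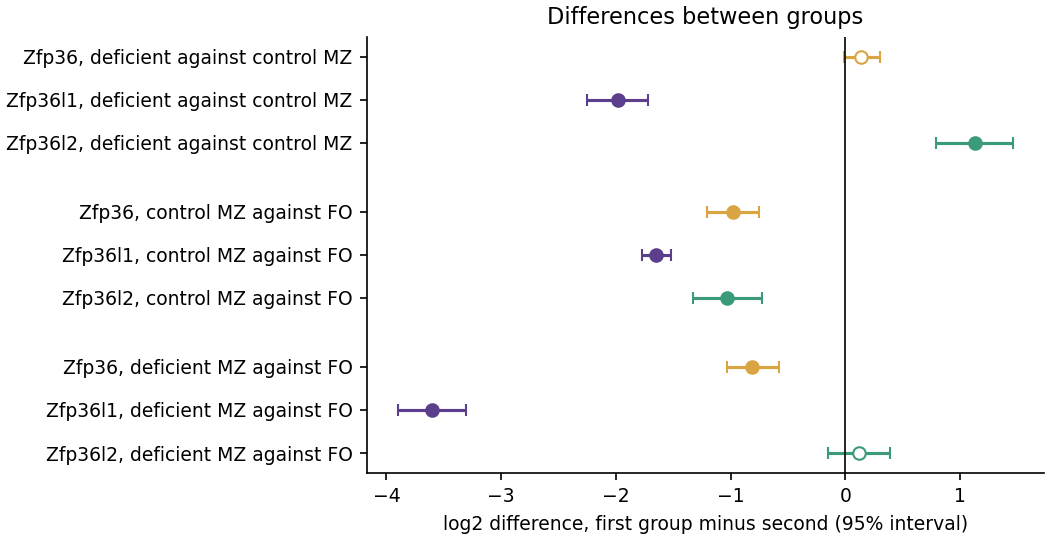
Log2 difference of each gene in each pair of groups (x axis, first group minus second) with its 95% interval, filled where the adjusted p was under 0.05 and open where it was not. The open points are Zfp36 in deficient against control MZ cells (0.14) and Zfp36l2 in deficient MZ against FO cells (0.12).

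The order of levels by gene was therefore FO above control above deficient for Zfp36l1, with no overlap between any pair of groups. For Zfp36 it was FO above both MZ groups, and the MZ groups overlapped. For Zfp36l2 it was deficient MZ and FO, which overlapped, above control MZ.

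Levels of different genes were compared per kilobase of merged exon (3.47 kb for Zfp36, 2.99 kb for Zfp36l1 and 3.53 kb for Zfp36l2). On this scale, and not with the shorter length for Zfp36l1 tried below, Zfp36 was the most abundant of the 3 in control MZ cells, at 70.6 ± 3.8 CPM per kb (SD, n = 4), followed by Zfp36l1 at 39.1 ± 2.34 and Zfp36l2 at 28.4 ± 5.6. This order held in 4 of 4 control libraries. The level of Zfp36 per kb exceeded that of 95.8% of 14371 genes in control MZ cells, that of Zfp36l1 91.3% and that of Zfp36l2 87.4%.

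In deficient cells the order was Zfp36 at 78.5 ± 5.99, Zfp36l2 at 62.4 ± 13.3 and Zfp36l1 at 9.95 ± 2.17 CPM per kb (SD, n = 4). It held in 3 of 4 libraries. In replicate 2, Zfp36l2 (82 CPM per kb) was above Zfp36 (74.2). Zfp36l1 here exceeded 66.3% of genes. In FO cells Zfp36 stood at 142 ± 22.7, Zfp36l1 at 124 ± 5.85 and Zfp36l2 at 59.1 ± 5.47 CPM per kb (SD, n = 4). The first 2 were close: in replicates 7 and 8 Zfp36 was at 122 and 121 and Zfp36l1 at 119 and 122, within the spread of Zfp36 between libraries.

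By merged exon length, the summed level of the family overlapped between the MZ groups, and the order of the means turned with another length for Zfp36l1. The summed level was 137, 167, 149 and 151 CPM per kb in deficient replicates 1, 2, 7 and 8 and 144, 138, 143 and 128 in control replicates 3 to 6. The ranges overlapped. The deficient mean of 151 ± 12.2 was 109% of the control mean of 138 ± 7.25 (SD, n = 4 each). Zfp36l1 contributed −29.2 to the difference, Zfp36l2 34 and Zfp36 7.88, for a net 12.7 CPM per kb. FO libraries were at 343, 348, 300 and 309 CPM per kb, above every MZ library, and the control MZ mean was 42.5% of the FO mean of 325 ± 23.7.

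The makeup of the sum differed between groups. Zfp36l1 made up 38.3% of it in FO cells, 28.4% in control MZ cells and 6.57% in deficient MZ cells. Zfp36l2 made up 18.3%, 20.5% and 41.2%, and Zfp36 43.3%, 51.1% and 52.3%. The ratio of Zfp36l2 to Zfp36l1 per length was 0.395 to 0.537 in FO libraries, 0.503 to 0.887 in control MZ libraries and 4.2 to 7.74 in deficient ones. With the exon bases of each gene that lie under no other gene as the length, it was 0.179 to 0.244, 0.228 to 0.403 and 1.91 to 3.52.

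These sums depend on the length assigned to Zfp36l1, because 55.9% of its exon bases also lie under exons of Gm26669, a long non-coding RNA on the other strand. If such bases went uncounted and the length was taken as the remaining exon bases (1318 for Zfp36l1, 3345 for Zfp36, 3425 for Zfp36l2), Zfp36l1 led in control MZ (88.8 ± 5.3 against 73.3 ± 3.95 for Zfp36) and in FO cells (282 ± 13.3 against 147 ± 23.6; CPM per kb, SD, n = 4). The mean deficient sum was then 168 ± 14.4, below the mean control sum of 191 ± 6.5. The ranges still overlapped, with deficient replicate 2 at 186 and control replicate 6 at 184 CPM per kb. This alternative was chosen after seeing the data. The sign of the difference in the summed level between MZ groups therefore cannot be given without the counting mode, which the sources used here do not give.

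**Figure D4:**
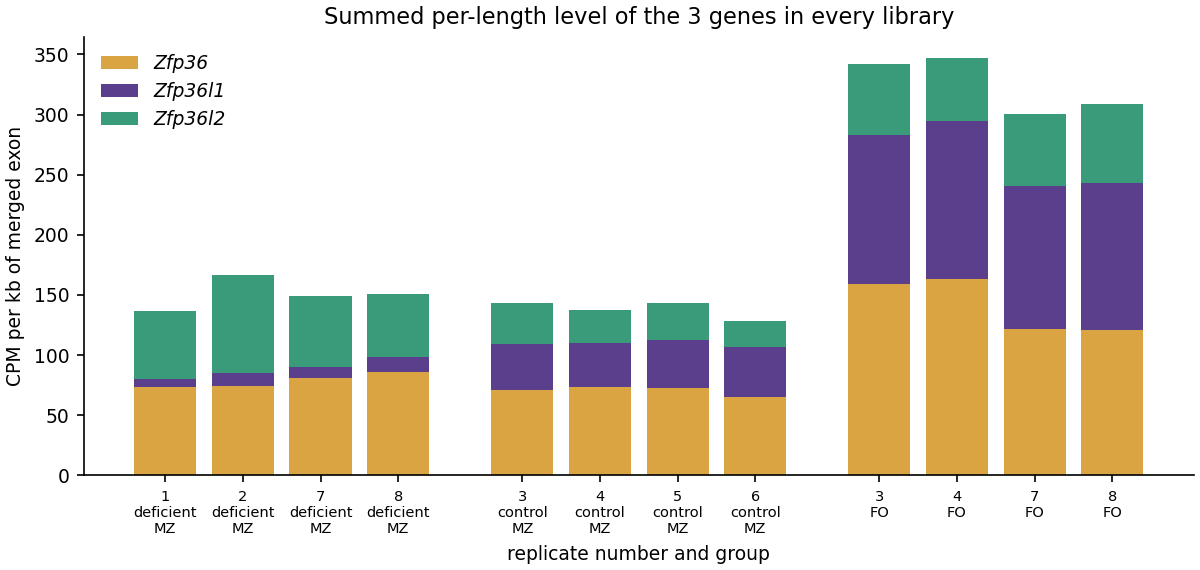
Level of the 3 genes per kilobase of merged exon, stacked for every library (y axis, CPM per kb, from 0; x axis, replicate number and group). The stacks of the MZ groups reach like heights, from 128 to 167, with Zfp36l1 reduced and Zfp36l2 enlarged in deficient libraries, and the FO stacks reach 300 to 348. With another length for Zfp36l1 the mean deficient sum lay below the mean control sum (168 against 191), and the ranges overlapped.

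Gm26669 itself was counted at low levels. It stood at 1.52 to 2.74 CPM in deficient, 1.1 to 1.28 in control and 5.05 to 8.26 in FO libraries. Its log2 difference was 0.72 (SE 0.25; edgeR quasi-likelihood, adjusted p = 0.127) between deficient and control MZ cells, opposite in sign to Zfp36l1, and −2.48 (SE 0.19; edgeR quasi-likelihood, adjusted p = 4.2e-08) between control MZ and FO cells, the sign of Zfp36l1. The design text gives a kit that marks strand for FO cells, but the strand setting used for counting was not stated, so reads of the 2 genes cannot be told apart. Among genes whose exons lay to 50% or more opposite exons on the other strand, the median log2 difference between control MZ and FO cells was −0.61 (n = 225), against 0.06 for genes with under 5% (n = 11057). Of the former, 38.7% had a lower value than Zfp36l1. Between deficient and control MZ cells these medians were 0.03 (n = 191) and −0.01 (n = 11219). The part of this overlap in the FO difference of Zfp36l1 was not tested. Zfp36 and Zfp36l2 share 3.6% and 2.97% of their exon bases with antisense genes.

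The fourth mouse member, Zfp36l3, known from the placenta, was nearly undetected, at 0 to 7 counts per library. The pseudogene Zfp36l1-ps had 0 to 2 counts per library.

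Genes that work with the family were called between deficient and control MZ cells at a share near the 3.76% of all tested genes. In the same fit, 0 of 16 regulators (kinases, PP2A subunits and 14-3-3 genes) were called by edgeR quasi-likelihood. At an unadjusted p under 0.05, 4 were higher and 0 lower, and DESeq2 called 2, the 14-3-3 genes Ywhae and Ywhah, both higher. The fit of all 12 libraries called Ywhah as well. The median log2 difference of the regulators was 0.05 beside −0.00 over all genes. Mapk14, which encodes p38α, stood at 0.10 (SE 0.06) and Mapkapk2 at −0.09 (SE 0.07) on the log2 scale, neither called.

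Of 24 genes for deadenylation, decapping and decay, 0 were called higher and 1 lower. At an unadjusted p under 0.05, 1 was higher and 6 were lower, and DESeq2 called 0 higher and 2 lower, the second being Cnot11. The median log2 difference was −0.09. The gene called lower was Parn, a poly(A)-specific ribonuclease, at 81 ± 0.388 against 95.5 ± 5.99 CPM (SD, n = 4 each; log2 −0.24, SE 0.06; adjusted p = 0.0485, edgeR quasi-likelihood). This call was lost in each of the 8 fits that left out a library and with other scaling factors, no filter or no robust prior. Of 14 tested genes for other proteins that bind AU-rich or stem-loop elements, 0 were called by edgeR quasi-likelihood, 2 were higher at an unadjusted p under 0.05, and DESeq2 called 0. Elavl1, which encodes the mRNA-stabilising protein HuR, stood at −0.01 (SE 0.08) on the log2 scale. Without deficient replicate 1, Tia1 and Zc3h12c were called higher (edgeR quasi-likelihood, adjusted p = 0.0372 and 0.0332).

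Among mRNAs described as targets of the family, 15 of 26 were expressed enough to test. In deficient cells 5 were higher and 0 lower, beside 2.3% and 1.46% of all genes, with a median log2 difference of 0.16. At an unadjusted p under 0.05, 6 were higher and 0 lower, and DESeq2 called the same 5. The list and this count were known from earlier results of these data. Myc, the growth regulator, stood at 376 to 519 CPM in deficient and 226 to 310 CPM in control libraries. Ccnd3, which encodes cyclin D3, stood at 112 to 150 against 78.3 to 80.8 CPM. Neither pair of ranges overlapped. E2f2, a transcription factor of the cell cycle, stood at 63.9 to 72.6 against 42.8 to 49.4 CPM. The kinase gene Pim1 stood at 7.64 to 12.5 against 4.41 to 6.02 CPM, and the phosphatase gene Dusp1 at 17.4 to 19.5 against 8.89 to 12.8 CPM. In these genes as well, every deficient library was above every control library. The groups did not overlap in 11.6% of all tested genes. These 5 were named because they were called, so the lack of overlap adds no separate support. Their log2 differences ran from 0.60 for E2f2 to 0.87 for Pim1 (SE 0.07 and 0.17; edgeR quasi-likelihood, adjusted p = 0.000352 and 0.0115). Tnf, the classical target of tristetraprolin, was at 20.2 ± 1.62 and 19.3 ± 1.39 CPM (SD, n = 4 each; log2 0.05, SE 0.09), and its call was not made (edgeR quasi-likelihood, adjusted p = 0.796). Myc, Ccnd3, E2f2 and Pim1 were called in every fit with 1 library left out and in each other setting tried, and Dusp1 in all but the fit of all 12 libraries together. The T cell and FO marker sums given above were also higher in deficient cells, and the erythroid sums overlapped. The part of these markers in the count of targets was not tested.

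**Figure D5:**
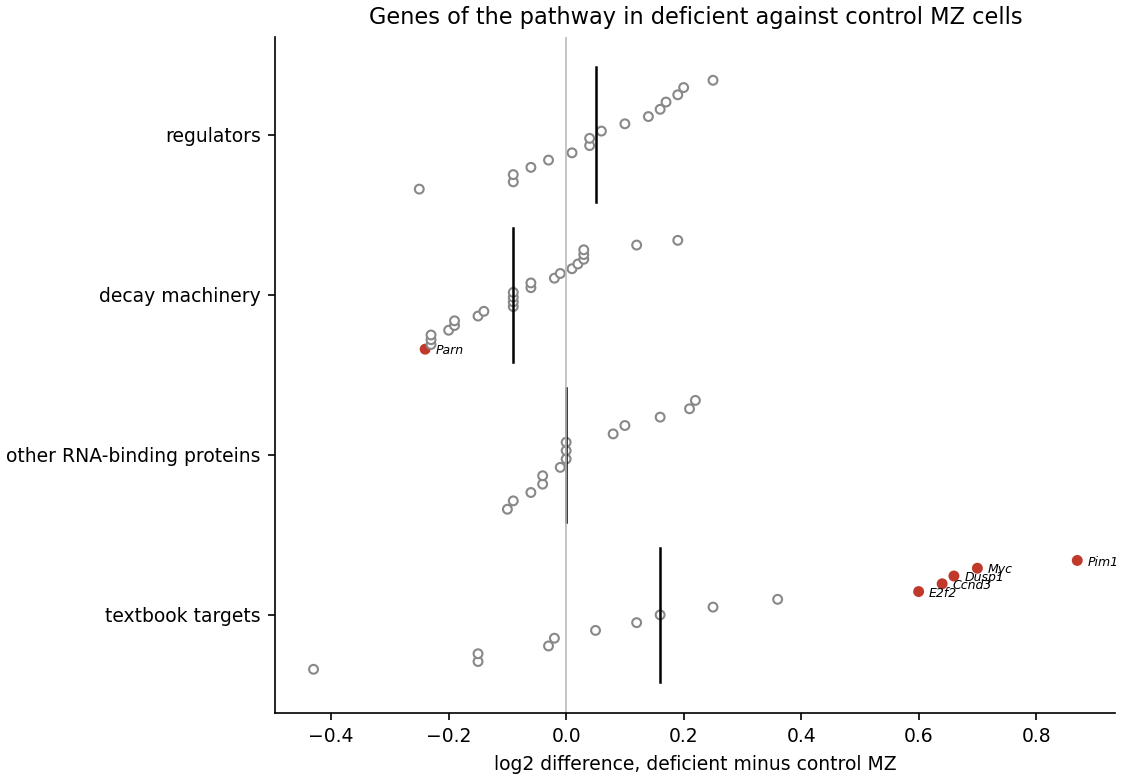
Log2 difference between deficient and control MZ cells (x axis) of each tested gene in 4 lists around the family, red and named where the adjusted p was under 0.05, with the list median as a black bar. Points are set at heights by rank within a list for legibility. Regulators, decay machinery and other RNA-binding proteins lie near 0, and the called targets lie from 0.60 to 0.87.

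Against FO cells the partner genes differed widely, as did most of the transcriptome (81.3% called). In control MZ cells 17 of 24 decay genes were lower and 5 higher, beside 38.7% and 42.6% of all tested genes, with a median log2 difference of −0.54 beside 0.05 over all genes. The DEAD-box helicase gene Ddx6 stood at 88.6 ± 4.4 against 1267 ± 7.5 CPM in FO cells (SD, n = 4 each; log2 −3.81, SE 0.06; adjusted p = 1.76e-14, edgeR quasi-likelihood). The decapping enzyme gene Dcp2 (log2 −2.69, SE 0.08), the translational repressor gene Gigyf1 (−2.47, SE 0.06) and the deadenylase gene Cnot6l (−1.79, SE 0.06) were lower as well. The CCR4-NOT scaffold gene Cnot1 stood at 208 ± 6.36 against 448 ± 10.1 CPM.

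Of 14 other RNA-binding protein genes, 9 were lower and 4 higher in control MZ cells, with a median log2 difference of −0.34. Pum2 (log2 −3.34, SE 0.05), Rc3h1, which encodes roquin-1 (−2.16, SE 0.07), and Tial1 (−1.23, SE 0.05) were lower, whereas Zc3h12c was higher (2.88, SE 0.09). Of 16 regulators 10 were higher and 4 lower, beside 42.6% and 38.7% of all tested genes, with a median of 0.26. The kinase genes Rps6ka1 (1.38, SE 0.07) and Akt1 (0.74, SE 0.05) and the 14-3-3 gene Ywhaq (0.75, SE 0.06) were higher on the log2 scale, and Pdpk1 (−1.26, SE 0.06) was lower. Of 15 targets 5 were higher and 6 lower, including Myc (2.47, SE 0.13), E2f1 (2.17, SE 0.17), Pim1 (−3.67, SE 0.09) and E2f2 (−1.18, SE 0.08). The limits on comparisons with FO cells apply to each of these values.

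In deficient MZ against FO cells the counts were 4 higher and 17 lower of 24 decay genes, 4 and 8 of 14 other RNA-binding protein genes, 12 and 3 of 16 regulators, and 6 and 6 of 16 targets, where 42.8% of all tested genes were higher and 38.3% lower. Ddx6 (−3.77, SE 0.08), Pum2 (−3.24, SE 0.08) and Rps6ka1 (1.32, SE 0.06) stood near their control MZ values on the log2 scale. Myc stood at 3.21 (SE 0.13) and Pim1 at −2.77 (SE 0.13).

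Genes with the most similar pattern to each member were found by the root mean square (RMS) difference of log2 CPM over the 12 libraries, each gene centred on its own mean. For Zfp36 they were Rgl2 (RMS 0.10), Cd180 (0.10) and Atf4 (0.12), beside a median of 0.50 over 8177 genes. Cd180, a surface receptor gene of B cells, stood at 238 ± 18.3 CPM in deficient MZ, 232 ± 5.4 in control MZ and 449 ± 39.8 in FO cells (SD, n = 4 each). For Zfp36l2 they were Bhlhe40 (0.26), Fam69a (0.28) and Gpatch11 (0.32), beside a median of 0.63. Bhlhe40, a transcription factor gene, stood at 32.9 ± 2.84, 13.8 ± 1.7 and 29.7 ± 4.43 CPM in the 3 groups. For Zfp36l1, which varied most over the libraries, they were the integrin gene Itgb3 (0.53), Tnks1bp1 (0.63) and Zfp146 (0.65), beside a median of 1.49. Itgb3 stood at 8.1 ± 0.636 in deficient MZ, 14.9 ± 2.26 in control MZ and 59.5 ± 3.49 CPM in FO cells.

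Over the 8 MZ libraries alone, the nearest to Zfp36l2 was the chemokine receptor gene Cxcr4 (RMS 0.16), at 13.8 ± 2.8 CPM in deficient and 5.59 ± 1.54 CPM in control cells (SD, n = 4 each), followed by Bhlhe40 (0.25) and Gpatch11 (0.27). The nearest to Zfp36l1 were Cecr2 (0.56), Antxr2 (0.58) and Mrgpre (0.59), and to Zfp36, which hardly varied, Ufsp2 (0.03), Lrrc57 (0.05) and Serf2 (0.05). These values describe likeness over libraries that share their groups.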

How the data were processed

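RNA was sequenced from MZ and FO B cells sorted from mouse spleen, 12 libraries in 3 groups of 4. The submitters' processing notes name build GRCm38 and the tools TopHat2 2.0.12, Trim Galore, HTSeq and DESeq2 1.10.1. Which annotation release, overlap mode and strand setting served for counting is not stated there. Raw counts were deposited as whole numbers, with a row per Ensembl gene and a column per library. The signal deposited beside them is each count over a library's own factor (0.842 to 1.15), which was checked and not used further. The authors' log2 fold changes and adjusted p-values were read from their deposited tables, and the other values there (a signed fold change and a test statistic, deposited by the authors) were not used.

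Differences were tested on the raw counts of the 8 libraries of each pair of groups with edgeR 4.0.16 (R 4.3.3): quasi-likelihood with robust prior, TMM scaling and filterByExpr by group. P-values were adjusted over all genes tested (Benjamini-Hochberg), with 0.05 as the threshold. The procedure was tested on simulated data. Depth was 28938453 to 40664963 counts per library. No 2 library columns were identical, and chi-square per gene between replicates was 5.45 to 44.5, above sampling noise. Symbols were found for 42462 IDs in GENCODE M21, which also supplied exons and sequences.

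Members, gene lists and rules were chosen with earlier results of these data known. Besides the 3 members, the genes named are those overlapping a member, the 3 nearest by pattern (mean log2 CPM of at least 3, without predicted, sex-linked, immunoglobulin or T cell receptor genes), up to 4 called genes of each list with the smallest p in each comparison, and cell type markers. Mapk14, Mapkapk2, Elavl1, Tnf, Cnot1, Cnot11, Ywhae, Ywhah, Tia1, Zfp36l3, Zfp36l1-ps and, between deficient and control cells, Pim1 and Zc3h12c fall outside that rule and were picked with their values in view. Tested alternatives were DESeq2 1.42.0, other scaling factors, no filter, all 12 libraries in 1 fit, each library left out, a replicate block and other gene lengths. The fit without a robust prior and the length without bases under other genes were added after seeing the data.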

Additional observations from a re-analysis of the deposited data

Results flagged for a closer look

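In 3 of 30 groups of 4 libraries, 1 library stood far from the other 3. For continuous values chance gives about 1 in 20. That rate does not apply to these 3 groups, because a group with counts in only 1 library is always flagged. All 3 concern genes at the limit of detection: Zfp36l3 reached 0.0278 CPM, a single count, in deficient replicate 2, and the pseudogene Zfp36l1-ps reached 0.0319 CPM (1 count) in deficient replicate 8 and 0.0531 CPM (2 counts) in control replicate 4, with 0 counts in the other libraries of those groups. No level of Zfp36, Zfp36l1 or Zfp36l2 stood apart in this way within a group.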

How the results depend on the processing

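No result changed sign while called. The calls of Zfp36, Zfp36l1 and Zfp36l2 in the 3 comparisons stayed on their side of the threshold under every alternative run. Leaving out 1 library gave log2 differences between deficient and control MZ cells of −2.11 to −1.86 for Zfp36l1, 0.97 to 1.23 for Zfp36l2 (highest adjusted p 0.0307, edgeR quasi-likelihood) and 0.11 to 0.18 for Zfp36. The number of genes called there was 526, but 1033 with DESeq2, 790 with all 12 libraries in 1 fit, and 257 to 506 with 1 library left out. It was 309, 257 and 311 without control replicates 3, 4 and 6 and 299 without deficient replicate 8. In the lists, leaving out 1 library gave 0 decay genes lower in each fit and 0 to 2 other RNA-binding protein genes higher.

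The shares of the family sum moved with gene length. With the longest coding transcript, Zfp36 made up 56.5% and Zfp36l1 25.3% in control MZ cells, and 48.7% and 34.7% in FO cells. With exon bases under no other gene, Zfp36l1 made up 13.3% in deficient MZ cells, the control shares of Zfp36, Zfp36l1 and Zfp36l2 were 38.3%, 46.4% and 15.3%, and the FO shares were 29.8%, 57.7% and 12.5%. The shortest annotated 3′ UTR of Zfp36l1 held 0 heptamers.

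Same-numbered MZ and FO libraries differ in genotype, so the numbers mark no shared mouse. The correlation of deviations between them was −0.07 and −0.14 for control MZ and FO replicates 3 and 4, and 0.26 and −0.02 for deficient MZ and FO replicates 7 and 8. With the replicate block, fitted on the 4 libraries of shared number, the log2 differences of Zfp36, Zfp36l1 and Zfp36l2 were −1.12, −1.74 and −0.82 in control MZ against FO cells (10204 genes called) and −0.52, −3.45 and −0.14 in deficient MZ against FO cells (11323 called). No paired analysis was possible between deficient and control MZ cells because they share no replicate number.

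The FO libraries differ from all MZ libraries in read layout and genotype and, by the design text but not the extraction protocol, in kit, and no library bridges them. Groups of 4 limit a single-gene exact permutation p to 0.0286. Counts per gene distinguish neither isoforms nor recombined from intact alleles.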
